A study of Rattus norvegicus with 2 samples.

Results

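Genes of hepatic stellate cells and of the extracellular matrix were examined in the rat liver that remains once lobes have been cut away by partial hepatectomy (PH). The 38 genes were taken from a fixed list of names and sorted by known role into 5 groups, namely 5 fibrillar collagens, 5 basement membrane genes, 10 genes that organise the matrix, 9 genes of matrix remodelling and 9 stellate or mesenchymal cell markers. They are 38 of 14217 genes named on the arrays. This list and the lists set beside it were chosen with earlier results of these data known. Their shares beside those of all genes are therefore only descriptions. The 2 groups were 1/3PH and 2/3PH, both sampled at 24 h. RNA from 3 rats was pooled in each group and measured on 1 Affymetrix array, so 6 rats gave 2 arrays. In the series' design text, 2/3PH stands for a liver with robust DNA replication and 1/3PH for one with a minimal response, and the comparison asked which transcripts differ between these states. The labels state no strain, sex or age, and no unoperated or sham-operated liver was analysed, so "higher" and "lower" below always describe the 2/3PH array as set against 1/3PH. With 1 array per group no difference has a replicate check and no test was possible.

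Hepatic stellate cells lie between the sinusoidal endothelium and the hepatocytes. In the resting state they store vitamin A as retinyl esters, and after injury they can become contractile, matrix-producing myofibroblasts. The liver matrix is built of fibrils of collagens I, III and V, of thin basement membrane components such as collagen IV, laminin and nidogen, and of proteoglycans that bind the fibrils. Metalloproteinases and the urokinase system cut this matrix, tissue inhibitors of metalloproteinases hold them back, and lysyl oxidases cross-link it. In regenerating liver, urokinase is also known for activating plasminogen and the hepatocyte growth factor precursor.

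The value of each gene is the MAS 5.0 signal of its brightest probe set by mean log2 signal, and the quantity compared is the log2 ratio, 2/3PH minus 1/3PH. Detection calls were replaced by a floor, the median over probe sets of the 2-array mean, which is a signal of 89.2. Of the 38 genes, 33 lay above it, and Col6a2, Postn, Plaur, Acta2 and Thy1 lay under it. Over all 9514 genes above the floor the median log2 ratio was 0.03, and each array had the same trimmed mean signal (500.3 and 500.2). The SD of the difference in log2 ratio between 2 probe sets of 1 gene was 0.44 over 2067 genes. It covers error within these arrays and holds no variation between rats. Whole liver RNA was measured, so fewer cells of a type and less RNA per cell cannot be told apart.

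Of the fibrillar collagens, Col1a1, Col1a2 and Col3a1 were at least 1.5-fold lower after 2/3PH, while Col5a1 and Col5a2 differed by less. The proteoglycans Lum, Dcn and Bgn also passed 1.5-fold on the lower side. The 5 basement membrane genes listed lay near 0, and remodelling genes and cell markers lay on both sides of it. At a limit of 2-fold, none of the 33 genes was higher, against 6.12% of all genes above the floor. At the same limit 4 of 33 were lower (12.1%), against 3.68% of all genes, namely Lum, Lrat, Mmp2 and Col1a1. At 1.5-fold, 9 of 33 (27.3%) were lower against 12.0% of all genes, and 3 of 33 (9.09%) were higher against 15.8%. At 3-fold only Lum was lower, against 0.999% of all genes, and none was higher, against 2.24%. The 9 at 1.5-fold were Lum, Lrat, Mmp2, Col1a1, Col3a1, Col1a2, Dcn, Timp2 and Bgn, and the 3 higher genes were Mmp14, Lox and Tagln. The median log2 ratio of the 33 genes was -0.19, and 20 (60.6%) had ratios below 0, against 47.1% of all genes above the floor. Those counts rest on the deposited scaling. Scaling to the spiked-in poly-A controls moved the median of all genes by 0.51 and made the members' median 0.32, against 0.54 for all genes. Scaling to the hybridisation controls moved all genes by 0.26 and made the members' median 0.07, against 0.30. Both add 1 amount to every log2 ratio, and so turn any ratio that lies below 0 by less than that amount. A sign that they turn therefore depends on the scaling. Differences from the median of all genes stay as they were. With the hybridisation controls 2 members were at least 2-fold lower, against 2.06% of all genes, and 1 was higher, against 10.8%. With the poly-A controls 1 was lower, against 1.12%, and 3 were higher, against 19.8%.

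**Figure D1:**
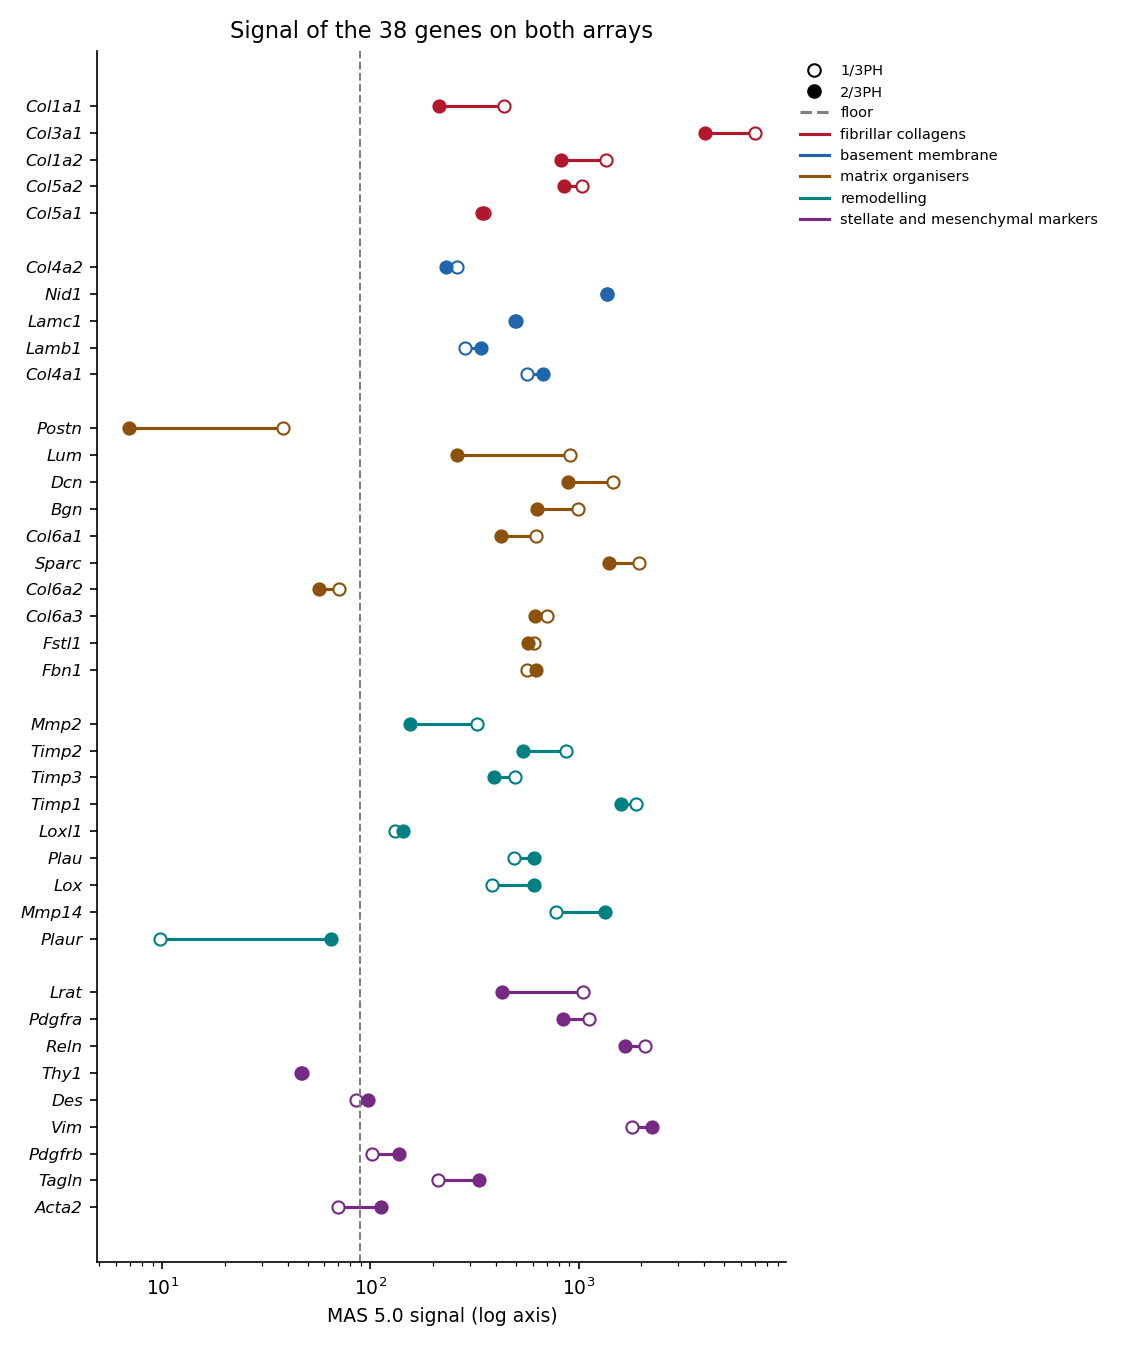
MAS 5.0 signal (log axis) of each of the 38 genes after 1/3PH (open circles) and 2/3PH (filled circles), coloured by role, with the floor signal of 89.2 as a dashed line. Lum went from 912.1 to 259.7, whereas the 2 circles of Nid1, at 1359 and 1366, coincide.

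The fibrillar collagens were all on the lower side, with a median log2 ratio of -0.73 over 5 genes and a range from -1.04 to -0.03. Col1a1 encodes the alpha-1 chain of collagen I, the main fibril collagen. Its signal was 439.1 after 1/3PH and 214.0 after 2/3PH, 2.05-fold lower. Col1a2, the partner alpha-2 chain, had signals of 1359 and 820.6, 1.66-fold lower. The log2 ratios of these partners, -1.04 and -0.73, differed by 0.31, less than the SD of 0.44 between probe sets of 1 gene. The second probe set of each gene was lower too, at -0.78 for Col1a1 and -0.58 for Col1a2, and all 4 probe sets of collagen I were brighter after 1/3PH. Col3a1 makes collagen III, which forms fibrils with collagen I in soft tissue. Its signals were 7022 and 4026, 1.74-fold lower, on a single probe set.

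Collagen V, which sits in the core of collagen I fibrils, differed little. Col5a1 had signals of 349.7 and 342.3, a log2 ratio of -0.03, and Col5a2 signals of 1037 and 847.4, a log2 ratio of -0.29. Both differences are under the SD between probe sets. The group's median stayed below 0 under all 5 other scalings, from -0.78 with median centring to -0.22 with the poly-A controls, while Col5a1 turned positive under both spike-in scalings and Col5a2 under the poly-A scaling. Col1a1, Col1a2 and Col3a1 were lower under every scaling run.

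The promoter window of Col1a2, the member of the collagen I pair with a window in the table used, is printed as that of the lowest ratio among the fibrillar collagens with a window. The window runs from 250 bases before to 50 bases after the RefSeq start and lies in GRCr8 at chr4:33518307-33518606, plus strand. Its last 50 bases open with ATG and hold no stop codon in that frame. The start used for Col1a2 may thus be that of translation, so its positions need not count from the transcription start. Capitals mark matches to TATAA, and to the CCAAT box, on either strand. No match to the GC box, GGGCGG, was found in these letters. Positions count from 1 at the start, with -1 the base before it. The CCAAT match spans -221 to -217 and the TATAA match -170 to -166.
Col1a2: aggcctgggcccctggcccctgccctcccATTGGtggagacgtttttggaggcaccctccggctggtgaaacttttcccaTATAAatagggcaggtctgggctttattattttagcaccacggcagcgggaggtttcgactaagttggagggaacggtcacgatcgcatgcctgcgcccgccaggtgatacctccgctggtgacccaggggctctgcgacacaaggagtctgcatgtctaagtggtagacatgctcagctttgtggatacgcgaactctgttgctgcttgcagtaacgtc

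The 5 basement membrane genes listed held a narrow range of log2 ratios, from -0.16 to 0.25, with a median of 0.01, and none reached 1.5-fold. Laminin, nidogen and collagen IV genes of the accompanying lists spread more widely. Above the floor, Nid2 (2.004-fold), Lama4 (1.90-fold), Lamb2 (1.74-fold), Lama3 (1.30-fold) and Col4a5 (1.26-fold) were lower. Lama5 (at least 2.54-fold) and Lama2 (1.10-fold) were higher. Col4a1, the alpha-1 chain of collagen IV, had signals of 567.1 and 672.8, a log2 ratio of 0.25. Its partner Col4a2 had signals of 259.0 and 231.3, a log2 ratio of -0.16 that was positive under both spike-in scalings. These chains, which assemble into 1 trimer, differed by 0.41, again under the SD of 0.44. The second probe set of Col4a1 stood at 0.60, further above 0 than the first. Lamb1 and Lamc1 encode the beta-1 and gamma-1 chains of laminin. The signals of Lamb1 were 285.6 and 338.1, a log2 ratio of 0.24. Those of Lamc1 were 495.8 and 499.9, a log2 ratio of 0.01. Nid1, which links laminin to collagen IV, had signals of 1359 and 1366. The dimmer probe sets of Lamc1 and Nid1, both under the floor, had log2 ratios of 1.27 and 1.32, and the group's median was 0.42 when probe sets were averaged. The sign of the group's median is not settled by these data, since it was -0.04 with median centring, -0.04 with quantile normalization and -0.03 with the loess trend removed. Of the fibrillar collagens, only Col5a1 at -0.03 lay within the range of the 5 basement membrane genes listed.

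Col4a1 and Col4a2 are known to lie head to head and to share a promoter region, so the window of Col4a1 is shown with the shared part marked. It lies in GRCr8 at chr16:84885347-84885646, plus strand, and the windows of both genes overlap by 176 bases. Capitals mark the bases that also lie in the window of Col4a2, read there on the minus strand. The start sites are at 84885597 for Col4a1 and 84885520 for Col4a2, with 76 bases between them.
Col4a1: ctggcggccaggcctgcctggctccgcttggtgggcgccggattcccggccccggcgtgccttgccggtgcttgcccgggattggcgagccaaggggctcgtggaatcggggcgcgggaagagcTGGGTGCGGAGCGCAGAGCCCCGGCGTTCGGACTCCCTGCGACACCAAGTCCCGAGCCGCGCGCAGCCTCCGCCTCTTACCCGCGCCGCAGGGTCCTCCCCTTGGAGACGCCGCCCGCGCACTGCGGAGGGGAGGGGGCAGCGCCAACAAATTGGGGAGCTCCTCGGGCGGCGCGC
The window of Nid1 is printed as a basement membrane promoter from another chromosome, at chr17:93069036-93069335, plus strand. Capitals mark a CCAAT match from -155 to -151 and 2 GC box matches, from -144 to -139 and from -131 to -126.
Nid1: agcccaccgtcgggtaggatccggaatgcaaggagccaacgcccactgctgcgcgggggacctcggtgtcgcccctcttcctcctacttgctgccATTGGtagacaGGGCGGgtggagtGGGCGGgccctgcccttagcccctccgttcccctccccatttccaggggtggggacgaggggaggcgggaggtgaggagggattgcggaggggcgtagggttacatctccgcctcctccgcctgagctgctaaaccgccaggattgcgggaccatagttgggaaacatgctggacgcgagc

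Promoter windows were found for 27 of the 38 genes. All 5 basement membrane windows held the GC box, against 1 of 3 fibrillar collagen windows, that of Col5a1. Both matches of Col4a1 and both of Col4a2 fall on the same bases, so these genes hold 1 shared set of matches. Over all members 15 of 27 windows held the GC box (55.6%), or 14 of 26 (53.8%) with the Col4a1 and Col4a2 pair counted once, against 33.1% of all 33469 windows of the same length. A match to TATAA was found in 6 of 27 (22.2%, against 26.2%) and to CCAAT in 9 of 27 (33.3%, against 37.5%). The AP-1 motif, TGANTCA, was found in the windows of Col6a1, Plaur and Pdgfra, or 11.1% against 7.33%. A strict CArG box, CCWWWWWWGG with W for A or T, was found in 0 of 27 against 1.64%. Forms with a G or C among the middle bases were not searched for. Both strands were searched. No matches of different motifs overlapped, and overlapping matches of 1 motif occurred in Lamc1 and Vim. The median GC content was 61.3% in the member windows and 51.7% in all windows, so windows of the members are richer in the letters of the GC box.

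**Figure D2:**
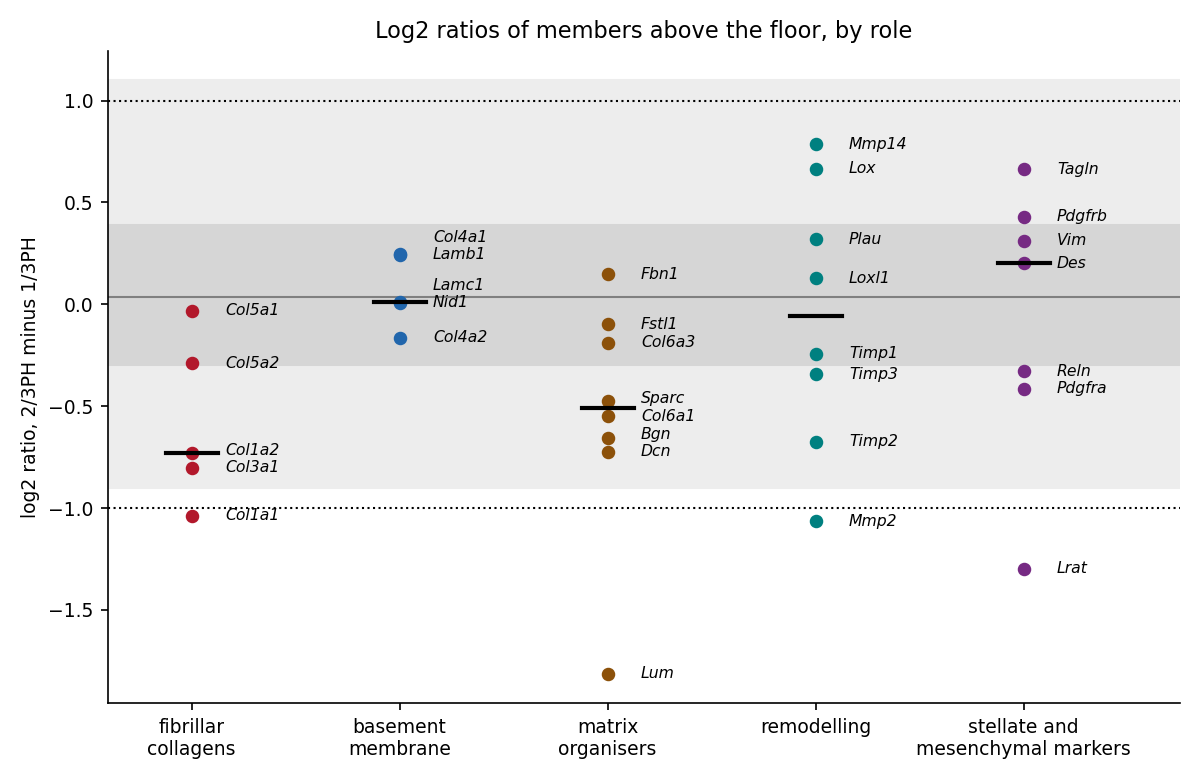
Log2 ratio (2/3PH minus 1/3PH) of the 33 genes above the floor by role, with the median of each role as a bar. The dark and light bands hold the 25th to 75th and the 5th to 95th percentiles of all 9514 genes (-0.30 to 0.39 and -0.90 to 1.10), the grey line their median, and the dotted lines the 2-fold limits. The fibrillar collagens reach from -1.04 to -0.03 and the basement membrane genes from -0.16 to 0.25.

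Genes that organise the matrix were mostly lower, 7 of 8 above the floor, with a median log2 ratio of -0.51 that was -0.25 when scaled to the hybridisation controls and -0.00073 when scaled to the poly-A controls. Lum encodes lumican, a small leucine-rich proteoglycan that limits the width of collagen fibrils. Its signal was 912.1 after 1/3PH and 259.7 after 2/3PH, 3.51-fold lower, on 1 probe set. Only 0.58% of all genes above the floor had a lower ratio, and Lum stayed lower under every alternative, at log2 ratios from -1.89 to -1.30. Other floors, averaged probe sets and removal of suffixed probe sets could not change the ratio of Lum. Its relatives decorin and biglycan, which also bind collagen, were lower by less. Dcn had signals of 1463 and 885.6, 1.65-fold lower, and Bgn signals of 992.9 and 630.9, 1.57-fold lower. Lum and Dcn differed by 1.09, or 2.47 times the SD between probe sets, whereas Bgn and Dcn differed by 0.07.

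The window of Lum is printed because Lum had the lowest ratio of the 33 genes. It lies in GRCr8 at chr7:34245456-34245755, plus strand, and capitals mark its CCAAT match on the opposite strand, from -130 to -126. No TATAA, GC box or AP-1 match was found in these letters.
Lum: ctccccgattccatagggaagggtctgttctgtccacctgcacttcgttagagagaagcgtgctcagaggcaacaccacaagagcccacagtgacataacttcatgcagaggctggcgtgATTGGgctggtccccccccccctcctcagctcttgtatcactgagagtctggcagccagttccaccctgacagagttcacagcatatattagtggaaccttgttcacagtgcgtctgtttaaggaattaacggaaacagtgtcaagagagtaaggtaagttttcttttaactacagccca

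The beaded-filament collagen VI and the matricellular proteins had smaller differences. Col6a1 had signals of 622.0 and 425.2, 1.46-fold lower, and Col6a3 signals of 703.1 and 616.4, 1.14-fold lower, with a second probe set under the floor at 0.26. Both are chains of collagen VI, and their log2 ratios differed by 0.36, under the SD between probe sets. Col6a2, the third chain, was under the floor on both arrays, at 70.4 and 56.4. Sparc, a collagen-binding glycoprotein, had signals of 1942 and 1399, 1.39-fold lower, and its second probe set stood at -0.38. Fstl1, a secreted follistatin-like glycoprotein, had signals of 612.6 and 572.0, and all 3 of its probe sets were below 0, from -0.38 to -0.10. Fbn1 encodes fibrillin-1, the backbone of microfibrils. Its probe sets disagreed in sign, at 0.15 for the brightest (signals of 562.0 and 622.7) and -0.42 for the next. Postn, periostin, a marker of activated fibroblasts, was under the floor on both arrays, at 38.1 and 6.91, and no fold is given. Under poly-A scaling Sparc, Fstl1 and Col6a3 turned positive, the last pair also under hybridisation control scaling.

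Remodelling genes lay on both sides of 0, with 4 of 8 on each side and a median log2 ratio of -0.06. With spike-in scaling it lay above 0 (0.20 by the hybridisation and 0.45 by the poly-A controls), as it did with the floor at the 75th percentile (0.32). Mmp2 encodes gelatinase A, which degrades denatured and basement membrane collagen. Its signals were 323.6 and 154.8, 2.09-fold lower. Its other probe set, under the floor at signals of 53.7 and 49.8, had a log2 ratio of -0.11, so the difference rests on 1 probe set. Mmp14 encodes the membrane-bound protease known to activate the precursor of Mmp2 together with Timp2. Its signals were 774.7 and 1336, 1.73-fold higher, and its second probe set also stood above 0, at 0.42. The log2 ratios of Mmp2 and Mmp14 differed by 1.85, or 4.20 times the SD between probe sets, the widest gap among the 12 related pairs compared.

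The tissue inhibitors of metalloproteinases had ratios below 0 by less than 2-fold. Timp2 had signals of 864.1 and 541.0, 1.60-fold lower. Its second probe set, under the floor at 44.0 and 58.2, went the other way (0.405), and the average of both was -0.14. Timp3 had signals of 495.1 and 390.6, 1.27-fold lower, and Timp1, which rises in injured liver, 1879 and 1588, 1.18-fold lower. Relative to the median of all genes, Timp2 stood at -0.71, Timp3 at -0.38 and Timp1 at -0.28, the same under both spike-in scalings, although those scalings turned the ratio of Timp1 positive and the poly-A scaling that of Timp3. The cross-linking enzymes were above 0. Lox, lysyl oxidase, had signals of 384.1 and 608.6, 1.59-fold higher, but its second probe set gave -0.02. Loxl1, which acts on elastic fibres, had signals of 131.3 and 143.5, a log2 ratio of 0.13.

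The urokinase gene was brighter after 2/3PH on both of its probe sets. Plau, urokinase plasminogen activator, had signals of 490.9 and 612.0, 1.25-fold higher, and its second probe set stood at 0.54. Plaur, the urokinase receptor, had signals of 9.71 and 64.3, both under the floor, so no fold is given. Its other probe set was also under the floor on both arrays. Plaur would be the 1 member past 2-fold on the higher side without a floor.

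**Figure D3:**
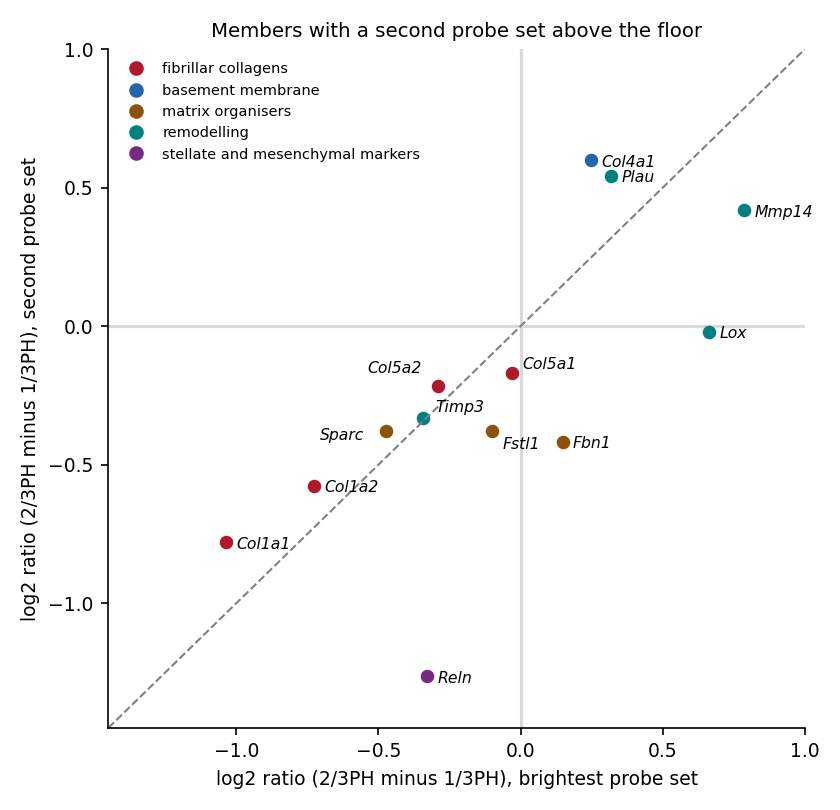
Log2 ratio (2/3PH minus 1/3PH) of the second-brightest probe set against that of the brightest for the 13 members with both above the floor, coloured by role, with the line of equality dashed. Points of 11 members lie on the same side of 0 on both axes, and the others, Lox and Fbn1, do not.

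Over the 13 members with a second probe set above the floor, the median absolute difference between both log2 ratios was 0.26. The widest was 0.94, in Reln. For 16 of the 38 genes the arrays held 1 named probe set, among them Lum, Lrat, Col3a1, Dcn and Bgn, and those ratios have no such check. Of the 4 genes at least 2-fold lower, Col1a1 alone had a second probe set above the floor.

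Markers of stellate and other mesenchymal cells did not move together. Of 7 above the floor, 4 had ratios above 0 and 3 below, with a median log2 ratio of 0.20. This median was -0.37 over the brighter genes left by the 75th percentile floor. It was -0.11 with probe sets averaged and -0.06 without suffixed probe sets, settings in which Pdgfrb fell under the floor. Lrat, lecithin retinol acyltransferase, makes the retinyl esters of the stellate cell's lipid droplets. Its signals were 1051 and 427.8, 2.46-fold lower, and it was lower under every alternative, at log2 ratios from -1.38 to -0.79. With a single probe set, other floors, averaging and suffix removal could not change its ratio. Reln, reelin, another gene of resting stellate cells, had signals of 2091 and 1665, 1.26-fold lower. Its second probe set was lower by more, from 181.5 to 75.6, a log2 ratio of -1.26, and poly-A scaling turned the first positive. The log2 ratios of Lrat and Reln by their brightest probe sets differed by 0.97, or 2.20 times the SD between probe sets.

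The window of Lrat is printed as that of the resting-cell gene with the lowest ratio. It lies in GRCr8 at chr2:170571163-170571462, minus strand. Capitals mark CCAAT from -80 to -76, TATAA from -28 to -24, and GC boxes from -44 to -39 and from 7 to 12.
Lrat: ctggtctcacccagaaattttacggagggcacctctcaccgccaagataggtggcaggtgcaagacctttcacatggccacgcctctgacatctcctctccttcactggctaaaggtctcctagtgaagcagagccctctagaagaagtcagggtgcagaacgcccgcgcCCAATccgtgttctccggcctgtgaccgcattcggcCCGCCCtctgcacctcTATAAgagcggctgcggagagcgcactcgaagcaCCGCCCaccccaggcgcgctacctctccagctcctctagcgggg

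The receptors for platelet-derived growth factor, a mitogen of stellate cells, went opposite ways by less than 1.5-fold each. Pdgfra had signals of 1115 and 836.4, 1.33-fold lower, and turned positive under poly-A scaling. Pdgfrb had signals of 101.5 and 136.7, 1.35-fold higher, and of its 2 dimmer probe sets, both under the floor, 1 stood at 0.62 and 1 at -1.51. Genes of the contractile and filament apparatus were above 0. Tagln, transgelin, an actin-binding protein of smooth muscle and myofibroblasts, had signals of 210.4 and 333.3, 1.58-fold higher. Vim, vimentin, had signals of 1804 and 2237, 1.24-fold higher. Des, desmin, the classical rat stellate cell filament, was just above the floor at 84.9 and 97.6, at least 1.09-fold higher. Acta2, smooth muscle actin, the usual myofibroblast marker, lay just under the floor at 69.5 and 112.9, at least 1.27-fold higher by the floor signal. Thy1, found on portal fibroblasts, was under the floor at 46.3 and 47.1. Tagln, Vim, Des and Pdgfrb stayed above 0 under every alternative that gave a value. Tagln, Vim and Des have a single probe set each, so other floors, averaging and suffix removal could not change their ratios.

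**Figure D4:**
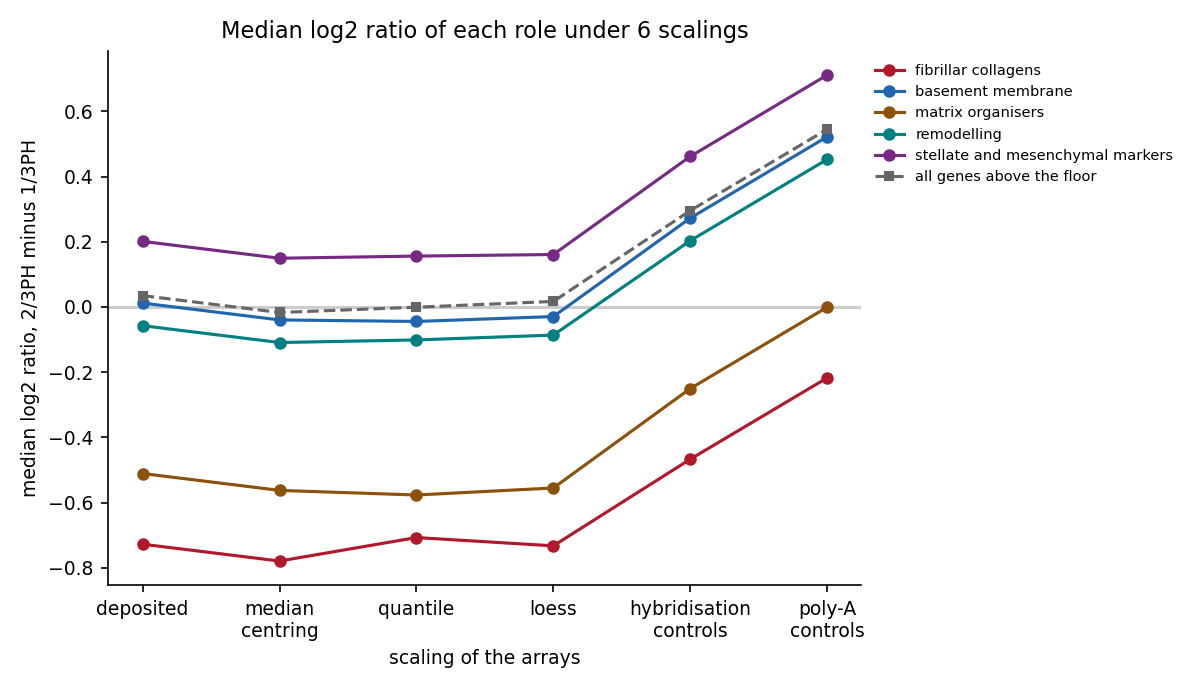
Median log2 ratio (2/3PH minus 1/3PH) of the genes above the floor in each role under the deposited scaling and 5 others, with the median of all genes above the floor dashed. The lines run nearly in parallel, and the fibrillar collagens lie lowest, from -0.78 to -0.22.

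Among 16 other stellate cell genes above the floor, 12 (75%) had ratios below 0, against 47.1% of all genes, and 3 (18.8%) were at least 2-fold lower, against 3.68%, with a median log2 ratio of -0.31, against 0.03 for all genes; with poly-A scaling the median was 0.20, against 0.54. The chemokine Cxcl12, which sinusoidal cells also make, was 2.38-fold lower, with signals of 14194 and 5962. Angptl6, an angiopoietin-like secreted factor, was 2.35-fold lower, and the collectin Colec11 2.06-fold. S1pr1, a sphingosine-1-phosphate receptor that endothelial cells also carry, was 1.82-fold lower. The other 4 of the 16 had log2 ratios above 0, namely Vcl (0.48), Lhx2 (0.40), Rgs5 (0.40) and Cygb (0.23). Lhx2, a transcription factor of resting stellate cells, and Cygb, their globin, thus lay on the other side of 0 from Lrat, and Hand2 lay at -0.02. Of 8 portal fibroblast genes, 5 were under the floor, and the other 3 were Gas6 (2.85-fold lower), Dpt (1.72-fold lower) and Fbln2 (1.19-fold higher). Gas6 is a secreted ligand of Axl-family receptors, and Dpt, dermatopontin, binds decorin.

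As a list, genes that fold and process collagen did not share the difference of the fibrillar collagens, and which cells gave their signals was not tested. Of 14 above the floor, 8 had ratios above 0 and 6 below, with a median log2 ratio of 0.04, beside 0.03 for all genes, and its sign turned with median centring and quantile normalization (-0.02 and -0.03). Pcolce, which speeds the removal of the collagen C-propeptide, was 2.04-fold lower, with signals of 1187 and 582.8. Bmp1, the protease that removes this propeptide, was 1.51-fold lower. The prolyl hydroxylases P4ha1 and P3h1 stood above 0, at 1.39-fold and 1.32-fold higher.

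Other collagens and matrix proteins varied in both directions. Of 8 other collagens above the floor, 5 (62.5%) were below 0, against 47.1% of all genes, and 3 above, with a median of -0.07. This median was 0.19 and 0.44 under the hybridisation and poly-A control scalings, against 0.30 and 0.54 for all genes. Col14a1, a fibril-associated collagen, was 1.64-fold lower, whereas Col8a1 was 1.92-fold, Col12a1 1.68-fold and Col8a2 1.30-fold higher. Of 40 other glycoproteins and proteoglycans, 29 (72.5%) were below 0, against 47.1% of all genes, and 11 above. By measured ratio 3 (7.5%) passed 2-fold on the lower side, against 3.68% of all genes. On the higher side 2 of the 40 did, Lama5 and Cd44, against 6.12% of all genes. The median of the 40 was -0.27, against 0.03 for all genes, and 0.24 with poly-A scaling, against 0.54. The microfibril protein Mfap5 was at least 2.31-fold lower, and Smoc1, a Sparc relative, 2.18-fold. The laminin chain Lama5 was at least 2.54-fold higher, whereas Cd44, the hyaluronan receptor, had 1 array under the floor (69.5 and 142.3) and is bounded only at 1.59-fold. Of the other small leucine-rich proteoglycans, Ogn was 1.92-fold and Aspn 1.19-fold lower, and Fmod and Prelp were under the floor. Nid2, the relative of Nid1, was 2.004-fold lower, with signals of 222.5 and 111.1. Of 24 other proteases and inhibitors, 16 (66.7%) were below 0, against 47.1% of all genes. None reached 2-fold, against 3.68% of all genes lower and 6.12% higher. Their median was -0.20, and 0.06 and 0.31 under the hybridisation and poly-A control scalings, against 0.30 and 0.54 for all genes. Hpn and Plg, both made by hepatocytes, were 1.98-fold and 1.84-fold lower, the plasmin inhibitor Serpinf2 1.68-fold lower, and the membrane protease Mmp15 1.74-fold higher.

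**Figure D5:**
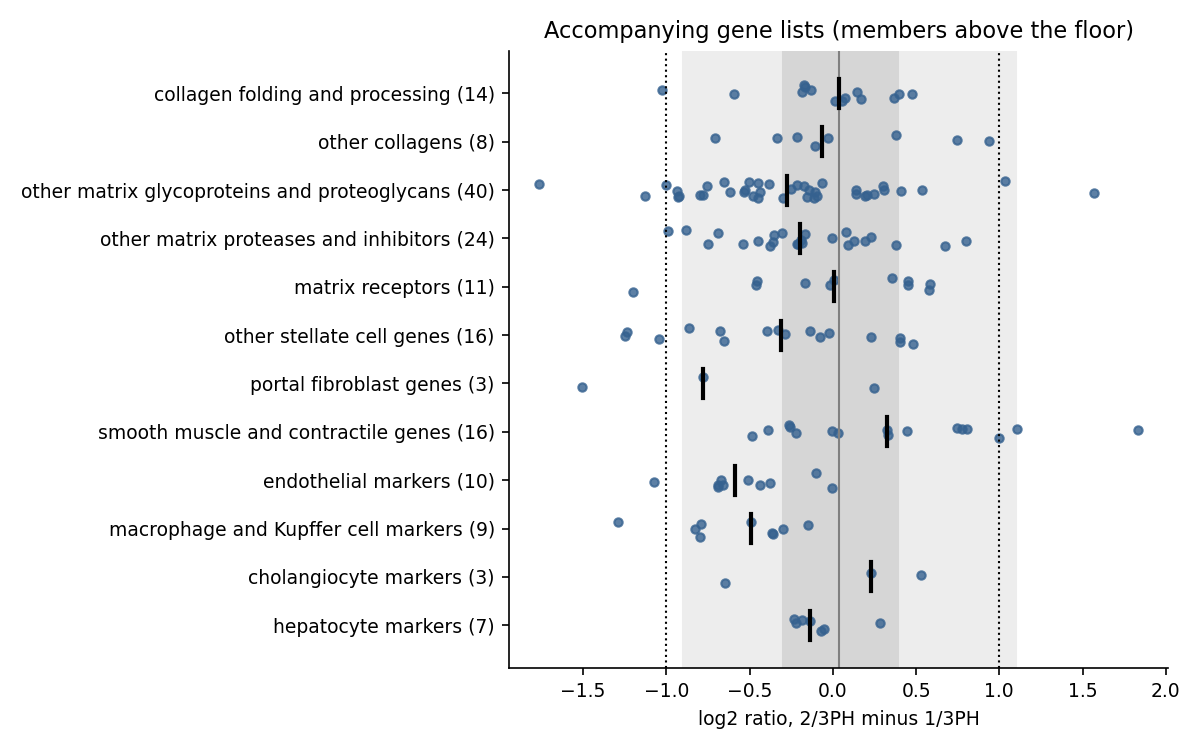
Log2 ratio (2/3PH minus 1/3PH) of the genes above the floor in each accompanying list, 1 point a gene, with the number of genes in brackets, the list median as a bar, and bands, grey line and dotted 2-fold limits for all genes as in the plot by role. All 10 endothelial and all 9 macrophage markers lie below 0.

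Markers of endothelial cells and macrophages were lower as well on the deposited scale. All 10 endothelial markers had ratios below 0, against 47.1% of all genes. Their median was -0.59, against 0.03 for all genes (-0.08 against 0.54 with poly-A scaling). Their summed signal went from 17538 to 11336. Kdr was 2.11-fold lower, whereas Pecam1 was nearly level, with signals of 196.5 and 196.1. All 9 macrophage and Kupffer cell markers were below 0, with a median of -0.49 and summed signals of 23594 and 16427. With poly-A scaling this median was 0.02, against 0.54 for all genes. The 7 hepatocyte markers had a median of -0.14 that turned positive with 4 of the 5 other scalings, and Alb had signals of 34570 and 29468. Of 6 cholangiocyte markers 3 were above the floor, with ratios of -0.65, 0.23 and 0.53, and all 3 mesothelial markers measured were under it, at summed signals of 224.3 and 176.8. The summed signal of the fibrillar collagens went from 10206 to 6250, and that of the basement membrane genes from 2967 to 3108. Endothelial cells also make collagen IV, laminin and nidogen. The part of these cell types in the matrix results was not tested.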

How the data were processed

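RNA of liver at 24 h after 1/3PH or 2/3PH, pooled from 3 rats per group, was measured on 1 array each. Per the labels' protocols, signals were computed with MAS 5.0 in GeneSpring 11.0. The deposited values are log2 signals of 31099 probe sets per array; read as powers of 2, both arrays have the same mean after removal of the top and bottom 2%. No source used here gives detection calls or the scaling target.

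Probe sets were named from the platform annotation, updated through Entrez identifiers to RefSeq (GRCr8), and 20826 carried 1 symbol. All 38 members matched by symbol. Of 259 entries in 13 accompanying lists, 29 were not matched and are not analysed here. A gene was called at 2-fold or more, as a description, since 1 array per group allows no test. A fold is "at least" where 1 array lay under the floor. Counts use the measured ratio, so 94 of the 582 higher and 48 of the 350 lower genes, but no member called, had 1 array under it. The calling code was tested on simulated arrays without variation between rats, which gives no error rate for the calls made here. Members and lists were chosen with earlier results of these data known. All members are named, with up to 4 genes of the highest absolute ratio per list and markers that define a cell type. Further genes were chosen after their values were seen (Nid2, Ogn, Aspn, Fmod, Prelp, Vcl, Lhx2, Rgs5, Cygb and Hand2). So were Lama2, Lama3, Lama4, Lamb2 and Col4a5. Promoter windows are RefSeq's, and their starts were not checked against transcription starts. The alternatives were 5 other scalings, 2 other floors, 64 added units, averaged probe sets, removal of probe sets with suffixes, and limits of 1.5-fold and 3-fold; the scalings of the accompanying lists were added after the data were seen. Python 3.11.15, pandas 2.3.3 and statsmodels 0.14.6 were used.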

Additional observations from a re-analysis of the deposited data

How the results depend on the processing

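The members at least 2-fold lower numbered 4 on the deposited scale and with median centring, quantile normalization, the loess trend removed or suffixed probe sets left out. They numbered 2, Lum and Lrat, with hybridisation control scaling, the 75th percentile floor, 64 added units or averaged probe sets, and 1, Lum, with poly-A scaling or a 3-fold limit. They numbered 5 without a floor (Postn added), and the 1.5-fold limit gave 9. Over all genes, the share at least 2-fold lower was 3.61% with the 75th percentile floor, 2.65% with 64 added units, 4.12% with averaged probe sets and 8.53% without a floor. Members at least 2-fold higher numbered 0, but 1 with hybridisation control scaling (Mmp14), 1 without a floor (Plaur) and 3 with poly-A scaling or the 1.5-fold limit (Lox, Mmp14 and Tagln). The share of all genes at least 2-fold higher was 10.8% with hybridisation control scaling, 19.8% with poly-A scaling and 11.7% without a floor, so these counts, of 33, 33 and 38 members, are below the all-gene shares. Under poly-A scaling the medians were 0.32 for all members, -0.22 for fibrillar collagens, 0.52 for basement membrane, -0.00073 for matrix organisers, 0.45 for remodelling and 0.71 for stellate and mesenchymal markers, a shift that this scaling gives every gene by construction. The 75th percentile floor, which tests fewer genes, gave 0.32 for remodelling and -0.37 for stellate and mesenchymal markers, and averaged probe sets gave 0.42 for basement membrane. None of the 4 genes called lower changed sign under an alternative that gave a value. A floor cannot change a ratio, nor can averaging or suffix removal for a gene with a single unsuffixed probe set. Which scaling is right was not tested. No replicate could be left out, and no paired analysis was possible because each group has 1 array and the labels carry no replicate numbers. The number of arrays limits precision, and a signal under the floor gives only a bound.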

Other observations

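Contractile genes and matrix receptors outside the 38 genes were not described above. Of 16 smooth muscle and contractile genes above the floor, 10 had ratios above 0 and 6 (37.5%) below, against 47.1% of all genes below 0. At least 2-fold higher were 2 of the 16, against 6.12% of all genes, and none was lower, against 3.68%. Their median log2 ratio was 0.33, against 0.03 for all genes, and stayed above 0 under the 5 other scalings. Myh10, a non-muscle myosin heavy chain, had signals of 112.8 and 402.4, 3.57-fold higher. Smtn, smoothelin, was 2.16-fold, the tropomyosin Tpm4 1.996-fold and the actin cross-linker Actn1 1.75-fold higher. Myh11, the smooth muscle myosin that defines that cell type, was 1.31-fold lower, and Cnn1 was under the floor.

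Of 11 matrix receptor genes above the floor, 6 had ratios above 0 and 5 below, with a median of 0.01. Its sign is not settled, since it was -0.04 with median centring, -0.05 with quantile normalization, -0.03 with the loess trend removed, and 0.27 and 0.52 with the hybridisation and poly-A controls. Itga1, a collagen-binding integrin chain, had signals of 315.3 and 137.3, 2.30-fold lower. The laminin-binding chain Itga6 was 1.501-fold higher, Itga8 1.495-fold higher and Itga5, a fibronectin-binding chain, at least 1.33-fold lower.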
